A study of Mus musculus with 9 samples.

Results

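The 9 genes described here encode sarcomeric myosin heavy chains of the mouse: Myh1, Myh2, Myh3, Myh4, Myh6, Myh7, Myh7b, Myh8 and Myh13. They were chosen as those transcript clusters (sets of probes for a gene) which the array annotation gives to 1 of these symbols alone, and each symbol had 1 such cluster. They are 9 of the 19938 genes that could be read from a cluster of 1 symbol, among 33323 clusters in all. RNA came from primary cultures of the stromal vascular fraction (SVF), the cells left when adipocytes are removed from digested fat, of subcutaneous adipose tissue from C57BL/6J mice (written C57BL6/J in the labels) aged 10 weeks. All cells, those of every group, grew in a minimal medium with no added inducer. The beating group (4 samples) held colonies that contracted by themselves on day 28 and were picked by hand, the non-beating group (4 samples) held the remaining cells of the dishes on day 28, and the round sample was 1 pool of 6 round cells taken on day 14 with an automated cell picker. A beating sample joined colonies of several dishes, all from a single lot of SVF. A picked colony can carry cells that lie next to it. The labels do not say that the replicates came from separate animals, so each p-value measures the spread between these samples, which may be technical.

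A sarcomeric myosin heavy chain is the motor of the muscle thick filament: its head binds actin and splits ATP, its neck carries an essential and a regulatory light chain, and its long tail packs into the filament. Muscles choose among the genes by age, fibre type and organ. Myh3 (embryonic) and Myh8 (perinatal) are the developmental forms, made in fetal muscle and again when muscle regenerates. Myh2 (type IIa), Myh1 (type IIx) and Myh4 (type IIb) are the fast forms of adult skeletal muscle, and Myh13 belongs to the muscles of the eye and larynx. Myh7, the slow or beta form, serves slow skeletal fibres and the heart, Myh6, the alpha form, is the main heavy chain of the adult mouse heart, and Myh7b is an ancient slow-type gene known for very low protein output.

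The genes lie on 3 chromosomes. Chromosome 11 holds the skeletal cluster in the order Myh3, Myh2, Myh1, Myh4, Myh8 and Myh13, chromosome 14 holds Myh6 beside Myh7, and chromosome 2 holds Myh7b. Of the genes that rose, 5 lie side by side on chromosome 11. For 4 of them, Myh1, Myh2, Myh4 and Myh8, the 250 bases before the annotated start (RefSeq, GRCm38.p6) were searched for shared letters. The windows of Myh1, Myh2, Myh4 and Myh8 had a run of 14 bases, TTCTAATTATATCC, in common, which was found on either strand in 4 of 32851 windows (0.0122%), those of the same 4 genes. A shorter run of 9 bases, TCAAATTAT, stood upstream of it in the same 4 windows and was found in 57 of the 32851 (0.174%). The runs were picked because they are shared, so these shares are a description and no test. The stretches that hold both runs are printed to show how close the 4 neighbours are, with the runs in capitals, from the plus strand of GRCm38.p6: chr11:67199881-67199960 for Myh1, chr11:67170849-67170920 for Myh2, chr11:67237620-67237672 for Myh4 and chr11:67277015-67277088 for Myh8.
Myh1: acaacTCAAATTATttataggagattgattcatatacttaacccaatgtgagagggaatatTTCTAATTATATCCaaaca
Myh2: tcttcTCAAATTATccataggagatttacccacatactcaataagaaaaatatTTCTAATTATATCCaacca
Myh4: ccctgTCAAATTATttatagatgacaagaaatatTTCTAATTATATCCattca
Myh8: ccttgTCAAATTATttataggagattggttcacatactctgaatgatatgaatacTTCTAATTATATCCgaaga

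Counted from the annotated start, the longer run began at -160 for Myh1, -125 for Myh2, -158 for Myh4 and -54 for Myh8. Myh3, which rose most, was not among the genes in which shared letters were sought, and it holds neither run. Its window held an E-box (CANNTG, the letters that Myod1 and its relatives bind) and the letters TATAAA close to the start. Both are in capitals in the stretch of chr11:67078104-67078299 on the plus strand, which ends at the base before the start.
Myh3: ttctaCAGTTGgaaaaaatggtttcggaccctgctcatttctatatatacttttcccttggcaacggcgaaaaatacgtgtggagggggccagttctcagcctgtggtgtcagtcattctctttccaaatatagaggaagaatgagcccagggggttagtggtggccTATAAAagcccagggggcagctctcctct

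Letters of other motifs were searched in the same windows on both strands. The consensus of MEF2, a factor family of muscle genes, stood in the windows of Myh1, Myh4 and Myh8, against 2.92% of all windows, and there it overlapped the end of the 9-base run and a TATAAA match. TATAAA was found in 4 of the 9 windows, against 12.4% of all. MCAT (CATTCC, the letters that TEAD factors bind) was found for Myh1, Myh4, Myh6 and Myh7, against 12.6%. E-box letters stood in 7 of 9 windows, close to their share of 66.2% among all windows. Myh2 had none of these 4 motifs in its window. Myh7 has 2 annotated starts, of which the first was used for these counts.

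**Figure D1:**
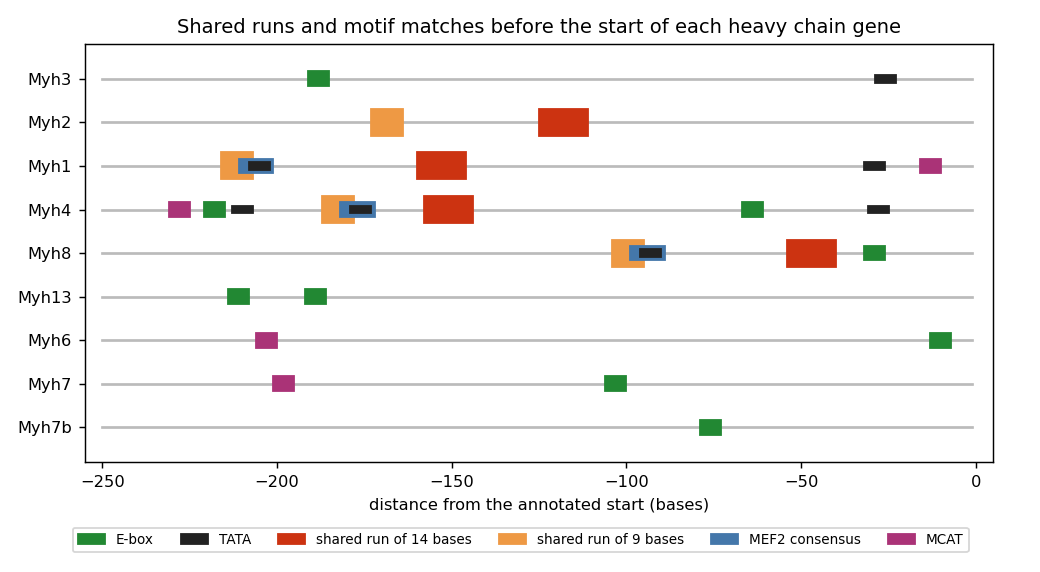
Positions of the 2 shared runs and of 4 motifs in the 250 bases before the annotated start of each heavy chain gene (x axis, bases from the start), with genes as rows. The runs of 14 and 9 bases appear for Myh1, Myh2, Myh4 and Myh8 and for none of the other 5 genes.

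Signals were read on Affymetrix Mouse Gene 1.0 ST arrays and are log2 values as deposited. The array medians lay between 3.08 and 3.17 on the 8 arrays of day 28 and at 3.54 on the round array, whose quartiles (2.72 and 4.56) were also closer together. Signals include background, so where one group is dim a signal ratio does not give the ratio of RNA. Levels of different genes were not compared, since each is read by other probes. The fast and developmental genes are close relatives in sequence, and how far a probe for one also takes up RNA of another was not measured here.

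Of the 9 heavy chains, 8 had higher signals in the beating than in the non-beating group, none had lower signals and 1 was not past the threshold (limma, adjusted p under 0.05 over all clusters). Across all clusters, 2.82% were called higher and 3.34% lower. The median difference of the 9 genes was 3.98 on the log2 scale, against -0.01 over all 19938 genes. At least 8-fold higher signals were seen for 6 members (Myh1, Myh2, Myh3, Myh4, Myh7 and Myh8), against 0.33% of all clusters. Some of these genes had been picked out by the study on the same arrays, so their direction is not independent evidence. In bulk RNA a gene that is carried by fewer cells and a gene with less RNA per cell cannot be told apart.

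**Figure D2:**
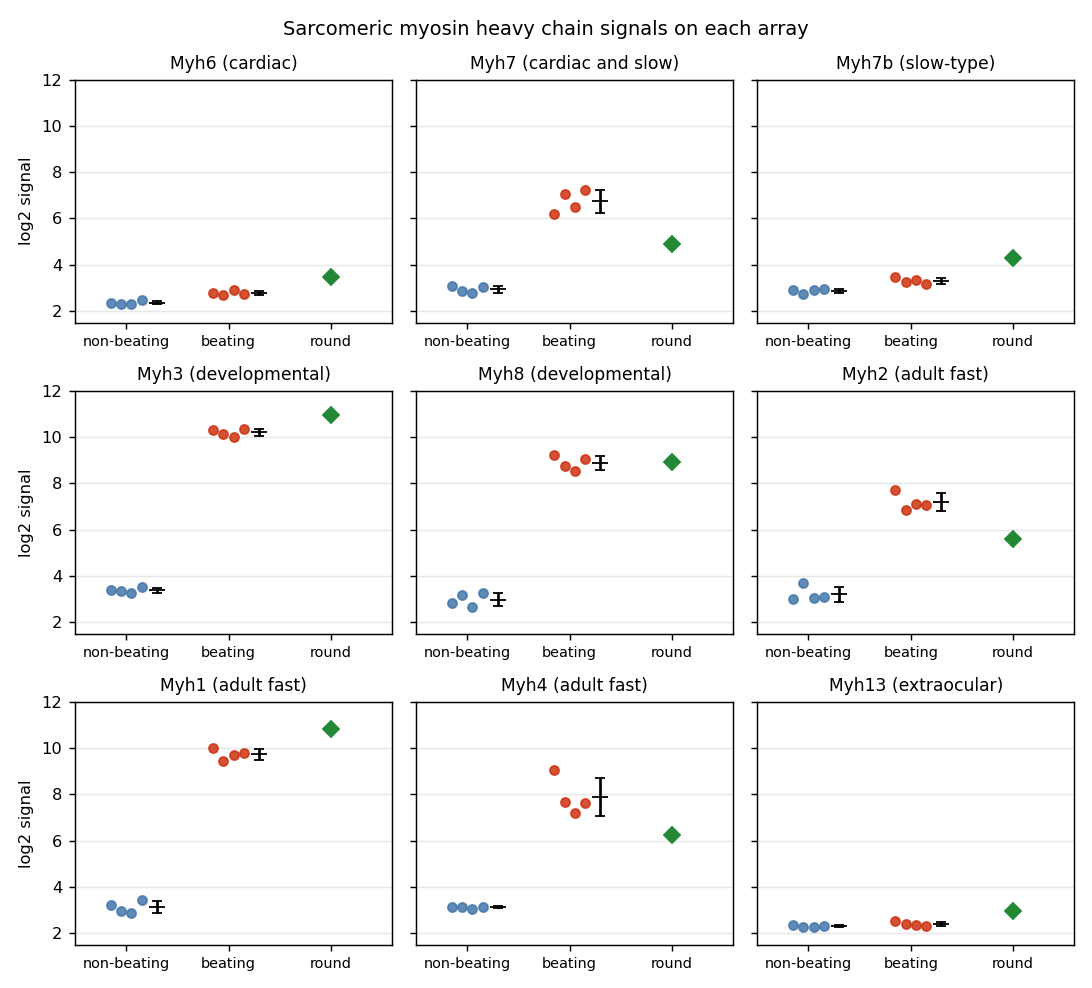
Log2 signal (y axis) of the 9 heavy chains on each array, with 4 non-beating arrays (blue circles), 4 beating arrays (red circles) and the round pool (green diamond). The bar beside each group gives its mean and SD. In 8 panels every beating array lies above every non-beating array, and in the panel of Myh13 the groups overlap.

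Both developmental forms rose by large amounts. Myh3 had log2 signals of 10.29, 10.15, 10.01 and 10.35 on beating arrays 1 to 4 and of 3.41, 3.33, 3.24 and 3.52 on non-beating arrays 1 to 4. The groups lay far apart, each within a narrow band. The difference was 6.83 (SE 0.095, 95% interval 6.61 to 7.05, n = 4 per group, limma adjusted p = 1.73e-08), a signal ratio of 113. By size, this difference was number 4 among the 19938 genes. For Myh8 the beating arrays read 9.24, 8.75, 8.55 and 9.05, and the non-beating arrays 2.81, 3.18, 2.64 and 3.26. No array of one group came near the other. Myh8 rose by 5.93 (SE 0.19, 95% interval 5.49 to 6.37, limma adjusted p = 1.37e-06), a ratio of 60.9.

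Among the fast forms, Myh1 changed most. Its log2 signals were 10.00, 9.45, 9.69 and 9.80 on the beating arrays and 3.23, 2.96, 2.89 and 3.43 on the non-beating arrays. The 4 beating values were within 0.55 of each other, a small spread beside the gap of 6.02 between the groups. The difference was 6.60 (SE 0.15, 95% interval 6.25 to 6.96, limma adjusted p = 3.66e-07), a ratio of 97.3.

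Myh4, the fastest form, had 9.06, 7.66, 7.18 and 7.64 on the beating arrays, with replicate 1 standing above the other three, and 3.14, 3.15, 3.07 and 3.15 on the non-beating arrays. It rose by 4.75 (SE 0.35, 95% interval 3.94 to 5.57, limma adjusted p = 0.000217), a ratio of 27. This was the widest interval of the 9 genes, and the beating SD of 0.81 was the largest. Without beating replicate 1 the difference was 4.36 (adjusted p = 4.47e-06). Myh2 read 7.73, 6.85, 7.12 and 7.05 on the beating arrays, again highest on replicate 1, and 3.02, 3.70, 3.03 and 3.07 on the non-beating arrays. Its difference of 3.98 (SE 0.22, 95% interval 3.47 to 4.50, limma adjusted p = 3.78e-05) is a ratio of 15.8.

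Myh13, the extraocular form at the far end of the same chromosome 11 cluster, did not pass. Its signals were 2.54, 2.39, 2.35 and 2.32 on the beating arrays and 2.35, 2.28, 2.28 and 2.31 on the non-beating arrays, below the array's own median on all 9 arrays. The groups overlapped, and the difference was 0.10 with a 95% interval of -0.05 to 0.24 (limma adjusted p = 0.455, unadjusted p = 0.169), which leaves room for a ratio of up to 1.18. So 5 of the 6 neighbours on chromosome 11 rose by ratios between 15.8 and 113, and the sixth gave no difference that could be told from the spread.

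Of the cardiac and slow forms, Myh7 rose and the array signal of Myh6 moved little. Myh7 had 6.19, 7.05, 6.48 and 7.23 on the beating arrays and 3.06, 2.87, 2.76 and 3.04 on the non-beating arrays. Its groups were 3.13 apart at the nearest. The difference was 3.80 (SE 0.22, 95% interval 3.29 to 4.32, limma adjusted p = 4.81e-05), a ratio of 14. For Myh6, the heavy chain of the adult mouse heart, the beating arrays read 2.78, 2.68, 2.90 and 2.73 and the non-beating arrays 2.36, 2.32, 2.29 and 2.46. The groups did not overlap, yet both lay below the median of their arrays, where a signal ratio does not give that of the RNA. By qRT-PCR, the study found Myh6 expressed in the beating cells. The difference of 0.41 (SE 0.069, 95% interval 0.26 to 0.57, limma adjusted p = 0.0131) is a ratio of 1.33.

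Myh7b was the other small rise. Its signals were 3.49, 3.24, 3.32 and 3.17 on the beating arrays and 2.92, 2.75, 2.90 and 2.95 on the non-beating arrays, so the groups were 0.21 apart at the nearest. The difference was 0.43 (SE 0.086, 95% interval 0.23 to 0.62, limma adjusted p = 0.028), a ratio of 1.34. This call was lost when any 1 of 6 arrays was left out (beating replicates 2 and 3 and each non-beating replicate), with differences of 0.38 to 0.45 and adjusted p up to 0.0818. In 8 of the 9 genes all beating arrays lay above all non-beating arrays, a pattern of 5.98% of all clusters, and in none did all lie below, as they did in 8.24% of clusters.

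Differences between members of like role were also read within each array, where the array's scaling cancels. Of the members, 3 pairs were chosen, and each was compared between the groups by an exact two-sided permutation test over 70 splits. Each exact test reached p = 0.0286, the smallest value possible, also after adjustment over the 3 pairs. Myh7 minus Myh6, the slow against the adult cardiac form, was 3.96 ± 0.55 (SD, n = 4) on the beating and 0.58 ± 0.098 (n = 4) on the non-beating arrays, which is 3.39 apart. Myh8 minus Myh3, the perinatal against the embryonic form, was -1.30 ± 0.18 on the beating and -0.41 ± 0.23 on the non-beating arrays. Myh4 minus Myh1 was -1.85 ± 0.67 on the beating and 0.00 ± 0.23 on the non-beating arrays. On the non-beating arrays Myh6, with a mean of 2.36, lay below the array medians of 3.08 to 3.09. The other members of the pairs lay nearer to these medians, with means of 2.93 for Myh7 to 3.37 for Myh3. At all these levels a signal can be mostly background. The tests therefore say that the within-array differences differed between the groups, and not by how much one member's RNA rose more than another's. The beating values of the last pair were spread from -2.51 to -0.94, with replicate 1 nearest to the non-beating arrays, and its SD was larger than in the other pairs. Left with 3 non-beating arrays, the last pair had p = 0.0571 (exact permutation test) in each case.

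The beating replicates did not carry the members in equal measure. Replicate 1 was highest of the 4 for Myh1, Myh2, Myh4, Myh8, Myh7b and Myh13, and lowest for Myh7. Its deviations from the beating mean were 1.17 for Myh4, 0.54 for Myh2, 0.34 for Myh8 and -0.55 for Myh7. Replicate 4, at 0.49, was highest for Myh7 and, at 0.15, for Myh3. Marker genes of other cells also differed in replicate 1. The mean over 4 endothelial markers was 3.83 there and 6.08, 6.36 and 6.94 on beating arrays 2 to 4, and the mean over 5 macrophage markers was 3.29 against 3.90, 4.05 and 5.01. Their part in the spread of the members was not tested. Without replicate 1, the 8 rises remained past the threshold in limma, with differences of 6.80 for Myh3, 6.52 for Myh1, 5.81 for Myh8, 4.36 for Myh4, 3.80 for Myh2, 3.99 for Myh7, 0.36 for Myh7b and 0.41 for Myh6.

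**Figure D3:**
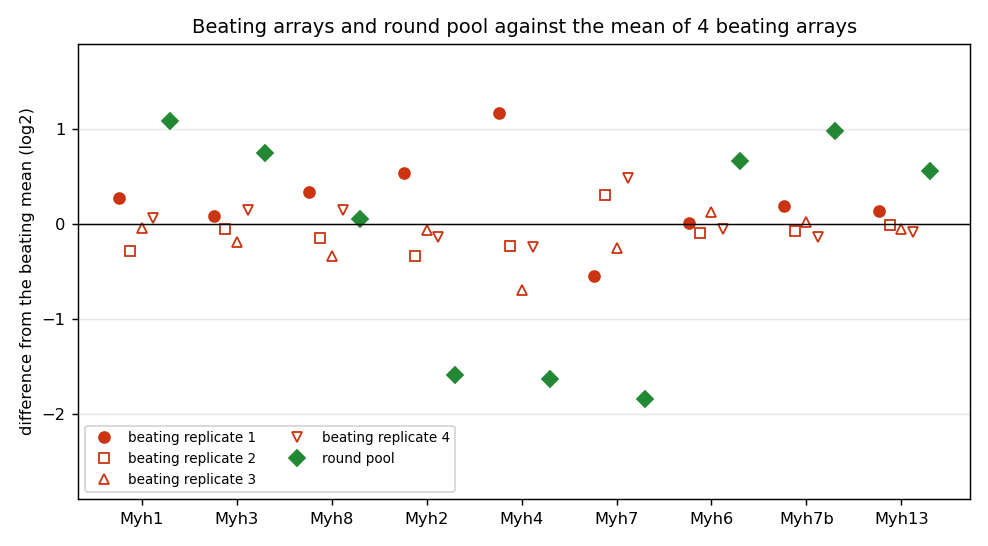
Difference of each beating array (red symbols, replicates 1 to 4) and of the round pool (green diamonds) from the mean of the 4 beating arrays (y axis, log2) for each heavy chain. Replicate 1 is highest for Myh4 (1.17) and lowest for Myh7 (-0.55), and the round pool lies lowest for Myh2, Myh4 and Myh7.

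The markers of the groups were read beside the members. Of 11 skeletal muscle markers, 8 were higher in the beating group and 3 were not past the threshold (Myf5, Pax7 and Ckm). Of 11 cardiac markers, 3 were higher (Tnnt2, Myl2 and Actc1) and 8 were not past it, among them Nppa, Ryr2, Nkx2-5 and Tnni3. Nppa, Ryr2 and Myl7 lay below the array median on all arrays of day 28, where a signal can be mostly background. By qRT-PCR, the study found the gene of brain natriuretic peptide (Nppb) raised in beating cells, and that of atrial natriuretic peptide not. On the arrays Nppb differed by 0.09 (limma adjusted p = 0.58). Tnnt2 and Actc1 are also made by developing skeletal muscle, and Myl2 by slow fibres. By immunostaining, the study found cardiac troponin T and MLC2v (the protein of Myl2) together in beating cells. It reported most troponin-positive beating cells of day 28 as negative for MyoD1. Which cells gave the array signals was not tested. The mean of the cardiac list ran from 5.06 to 5.48 on the beating and from 3.39 to 3.60 on the non-beating arrays, and that of the skeletal list from 6.85 to 7.41 and from 3.65 to 3.98. Markers of the surrounding cells moved the other way in part: 2 of 6 fibroblast, 2 of 5 adipocyte and 1 of 5 macrophage markers were lower in the beating group, and none of the 4 endothelial markers passed in either direction. Of 5 smooth muscle markers, Smtn was higher and 4 were not past the threshold. The part of this change of cell types in the rise of the heavy chains was not tested.

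**Figure D4:**
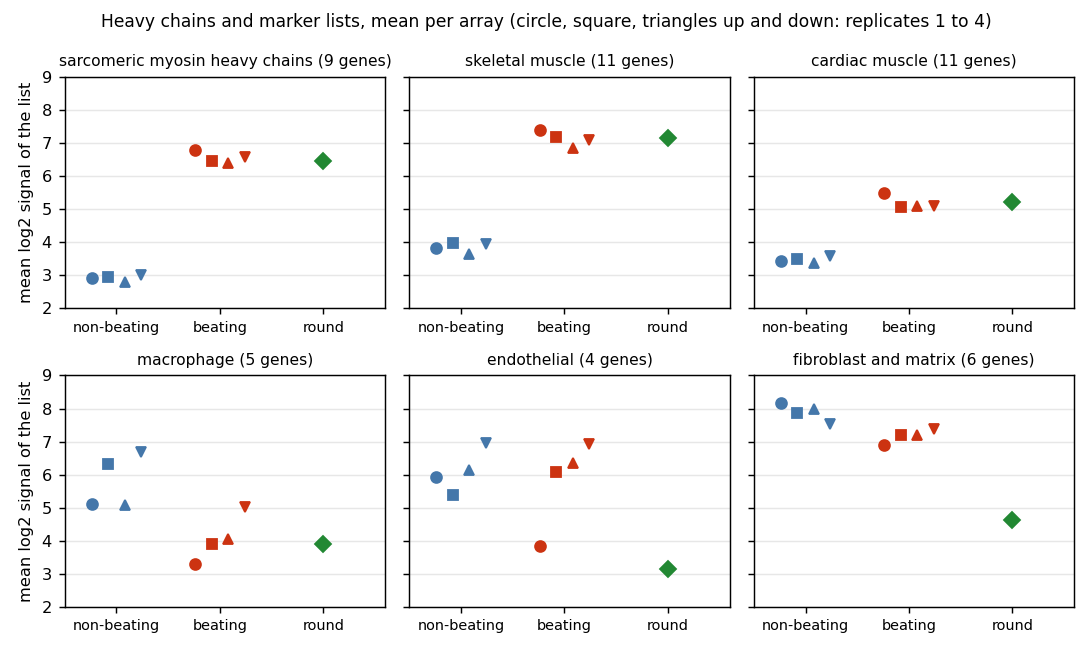
Mean log2 signal per array (y axis) of the 9 heavy chains and of 5 marker lists, for the non-beating arrays (blue), the beating arrays (red) and the round pool (green). The heavy chain mean lies between 6.40 and 6.81 on the beating arrays and between 2.79 and 3.02 on the non-beating arrays, and the endothelial mean of beating replicate 1 (3.83) stands apart.

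The round pool, 1 sample with no replicate and no test, already held high signals of several members on day 14. Myh3 read 10.95, Myh1 10.83 and Myh8 8.94 there, which is 7.57, 7.70 and 5.97 above the non-beating means. Myh4 at 6.24, Myh2 at 5.60 and Myh7 at 4.88 were 3.11, 2.39 and 1.95 above them. The dim members read 4.29 for Myh7b, 3.45 for Myh6 and 2.96 for Myh13, with Myh6 and Myh13 below the median of the round array itself. All 9 members were above all 4 non-beating arrays, as were 54.3% of all clusters.

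Against the beating arrays the round pool split the members. It was below all 4 of them for Myh7 (-1.85 from their mean), Myh4 (-1.64) and Myh2 (-1.59), as for 27.9% of all clusters. For Myh8 it fell within their range, 0.05 above their mean. For Myh1 and Myh3 it was above all 4, by 1.09 and 0.75 over the mean, and it was also above all 4 for Myh7b (0.98), Myh6 (0.67) and Myh13 (0.56), as for 50.3% of all clusters. These 5 members were thereby above all 8 other arrays, as were 46.4% of clusters. The higher median of the round array bears on the small differences. With each array centred on its median, Myh1 was 0.70 and Myh3 0.35 above the beating mean, Myh8 differed from it by -0.35 and Myh7 by -2.25. With quantile normalization of the 9 arrays, Myh7, Myh2 and Myh4 differed from the beating mean by -1.14, -0.56 and -0.55, and 2 members were below and 6 above all beating arrays.

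As deposited, the order of levels was round, beating, non-beating for Myh1, Myh3, Myh6, Myh7b and Myh13, and beating, round, non-beating for Myh2, Myh4 and Myh7. The number of members above the beating arrays, 5 of 9, is close to the share of all clusters, so nothing particular to the heavy chains is read from it. For the dim members the distance from the beating mean depended on the scaling: with median centring and quantile normalization it was 0.28 and 0.24 for Myh6, 0.17 and 0.11 for Myh13, and 0.59 and 1.13 for Myh7b. For Myh8 the round pool lay within the beating range as deposited, and 0.65 above the beating mean with quantile normalization, so its place in the order is not settled. For Myh13 the beating and non-beating groups overlapped. Within the round array, Myh4 minus Myh1 was -4.58, further from the non-beating mean of 0.00 than any beating array. Myh8 minus Myh3 was -2.01, likewise beyond the beating arrays, and Myh7 minus Myh6 was 1.44, between the groups.

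The other listed class II heavy chains, mostly those of smooth muscle and of cells without sarcomeres, did not share the rise. Of these 5 genes none was higher, 1 was lower and 4 were not past the threshold, with a median difference of -0.43. The lower one was Myh10, a non-muscle form, at -0.57 (limma adjusted p = 0.0272), and this call was lost under several of the alternatives run. Myh9, the most widely made non-muscle form, differed by -0.47 (adjusted p = 0.485), and Myh11, the smooth muscle form, by -0.43 (0.375). Myh14 and Myh15 were at 0.16 and 0.10 and did not pass.

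Of 12 genes for the light chains that sit on the heavy chain neck, 5 rose, 2 fell and 5 did not pass, with a median difference of 0.35. The rises were those of Myl1 (6.28) and Mylpf (5.93), the fast skeletal essential and regulatory chains, Myl4 (5.00), the chain of atrium and fetal muscle, Myl2 (4.84), the chain of ventricle and slow fibres, and Myl6b (2.67), a slow-type essential chain. Myl6 and Myl12b, which serve non-muscle and smooth muscle myosin, fell by 0.36 and 0.37. Myl6 was lower in all 6 of its clusters, with differences of -0.80 to -0.36. Both calls were lost with the methods' t-test and without non-beating replicate 1, 2 or 4, and the 1.5-fold prefilter left both genes out. Whichever array was left out, 5 to 6 light chains passed, against 7 in the fit reported. Myl7 and Myl3, the atrial regulatory and the ventricular essential chain, differed by 0.16 and 0.21 and did not pass. In the round pool Myl2 read 3.39, against 6.93 to 8.36 on the beating arrays, so it was below all of them, as Myh7 was at 4.88. Myl2 lay below the median of the round array, and Myh7 lay 1.35 above it.

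Of 9 measured partners of the thick filament and the M-band, 7 rose and 2 did not pass, with a median difference of 2.68. Titin (Ttn), the spring that spans the sarcomere, rose by 6.40. Mybpc1, the slow skeletal myosin-binding protein C, rose by 5.57, its relative Mybph by 4.02 and myomesin 1 (Myom1), which links thick filaments in the M-band, by 3.53. The cardiac myosin-binding protein C, Mybpc3, was at 0.08 (limma adjusted p = 0.751), a smaller difference than that of Myh6, the heavy chain it accompanies in the heart.

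**Figure D5:**
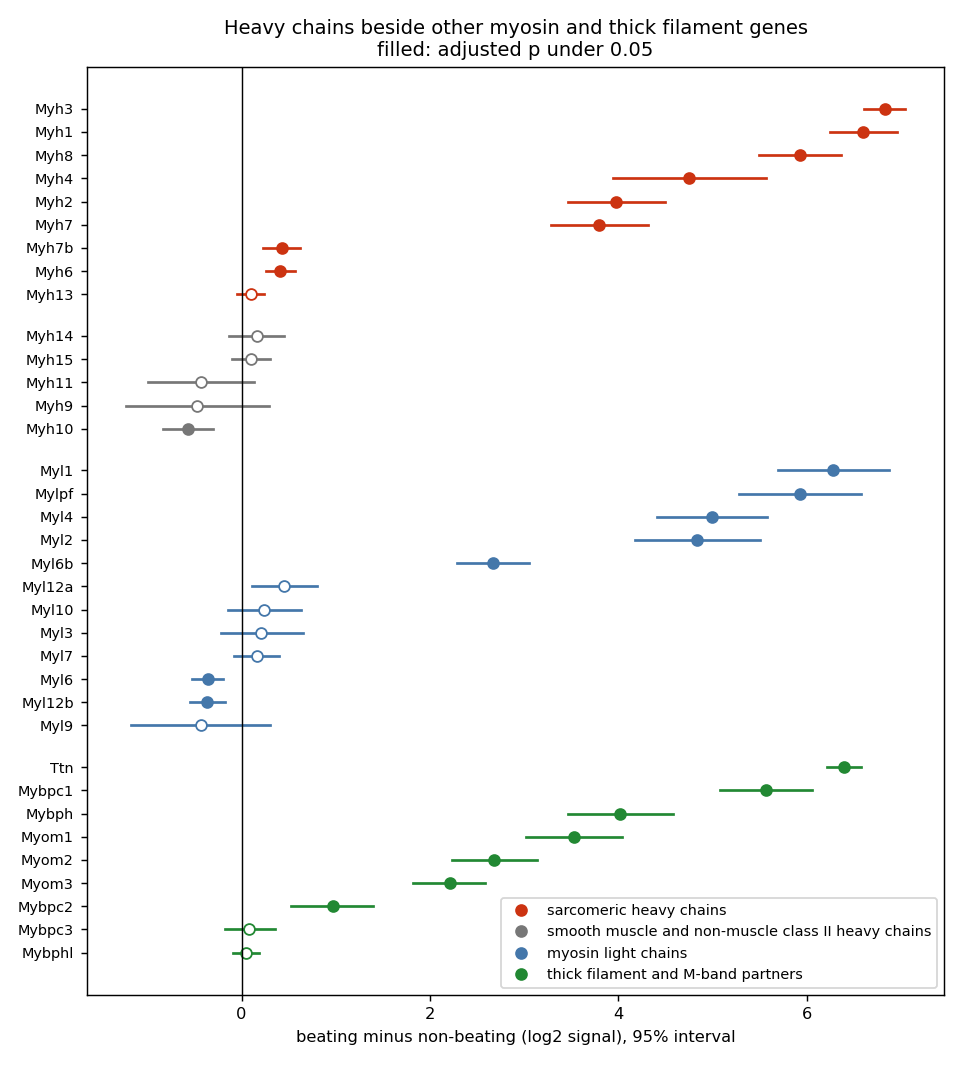
Beating minus non-beating log2 difference (x axis, points) with 95% intervals (lines) from limma for the 9 sarcomeric heavy chains and 3 related groups of genes, where filled points passed the adjusted threshold. Sarcomeric members reach 6.83, and the other class II heavy chains lie between -0.57 and 0.16.

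Most of the genes that fold, phosphorylate or choose the heavy chains did not pass. Over all 19938 genes, 566 were higher and 820 lower. Of 5 folding and assembly genes only Smyd1, a methyltransferase of the myosin chaperone pathway, rose (2.50), and the muscle chaperone Unc45b was at 0.56 (limma adjusted p = 0.0671). Of 7 light chain kinase and phosphatase genes, each read from its brightest cluster, only Mylk4 rose, by 5.79. Mylk2 and Mylk3, the skeletal and cardiac kinases, differed by 0.22 and 0.07 and did not pass. Ppp1r12b has 7 clusters, of which 3 were higher and 4 did not pass, with differences of 0.23 to 2.02. Its brightest cluster, at 0.86, was among those 4 (limma adjusted p = 0.106). Of 12 unconventional myosins 2 rose, Myo10 by 0.83 and Myo18a by 0.74. Myo18b, a myosin of the sarcomere, is spread over 20 clusters on the array, of which 11 were higher by 0.77 to 3.54 and 9 did not pass, the brightest of them at 0.17 among those 9. Of 15 regulators 3 rose: Mef2c by 4.01, Tead4 by 1.96 and Mef2a by 0.85, and the call of Mef2a was lost with the methods' t-test (adjusted p = 0.0533).

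The heart and slow genes also carry regulatory RNAs. In the heart, miR-208a lies within Myh6, miR-208b within Myh7 and miR-499 within Myh7b, and they help to set which heavy chain is made. Their mature sequences (RefSeq, GRCm38.p6) are printed because they show how alike the RNAs of the 3 host genes are, with the seed, bases 2 to 8, in capitals.
miR-208a-3p: aUAAGACGagcaaaaagcuugu
miR-208b-3p: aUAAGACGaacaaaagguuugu
miR-499-5p: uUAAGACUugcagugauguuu

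The seeds of miR-208a-3p and miR-208b-3p are the same, and that of miR-499-5p differs from them in its last base. Of 7 listed RNAs that are hosted by or lie next to the heavy chain genes, 3 could be read, and 1 rose. The clusters of Mir208a and Mir499 read the gene and not the mature RNA, and their differences were 0.09 and 0.11 (limma adjusted p = 0.683 and 0.502). Mir499 read 4.16 in the round pool, against 1.95 to 2.34 on the other 8 arrays, and its host Myh7b was also highest there. As 46.4% of all clusters were highest in the round pool, nothing particular to this pair is read from it. Mhrt, a long non-coding RNA of the mouse heart whose span overlaps that of Myh7, read 5.31, 6.02, 6.65 and 7.21 on the beating arrays, 3.11, 3.06, 3.28 and 3.51 on the non-beating arrays and 4.90 in the round pool. It rose by 3.05 (SE 0.37, limma adjusted p = 0.00327), and like Myh7 it was lowest of the beating arrays on replicate 1 and highest on replicate 4. According to the paper, the amplification made sense-strand cDNA. The share of the Mhrt signal that comes from RNA of Myh7, or the reverse, was not measured.

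The genes with the pattern most like each member were found by Pearson's r of log2 signals over the 9 arrays, a description only. For the members that rose most the points fall into the 2 groups of day 28, and for the dim members 1 point, the round pool, lies above the rest. For Myh3 and for Myh1 they were the same 3 genes, Neb, Ttn and Hrc, at r of 0.998 to 0.999, and Myh3 and Myh1 had r = 0.999 with each other. Myh8 was followed by Actn3, Tnnc1 and Actc1 (0.998 to 0.999). Myh2 had Srl, Dmd and Atp2a1 (0.992 to 0.994), and Myh4 had Mypn, Atp2a1 and Tpm2 (0.992 to 0.993). Myh7 had Akap6, Zdbf2 and Mylk4 (0.988 to 0.993). Myh1 and Myh3, with high round signals, thus shared their nearest genes, and Myh2 and Myh4, with lower ones, shared Atp2a1, the calcium pump of fast fibres. Myh7, also lower in the round pool, shared none with them. The round pool is among the 9 arrays behind r, so members with like round signals tend to get like neighbours, and no conclusion is drawn.

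The dim members, whose r rests largely on that point, had other genes beside them. Myh7b had Prrxl1, Vgll2 and Casz1 (r of 0.985 to 0.997), which read 4.23, 6.14 and 4.53 in the round pool, and Myh6 had Pitx3, Stoml3 and Gbp9 (0.970 to 0.974). Among the members themselves, r between Myh6 and Myh7 was 0.553, the neighbours on chromosome 14, and r between Myh6 and Myh7b, both highest in the round pool, was 0.969. Of the 24 choices that the rule made for the 8 members past the threshold, with some genes chosen for more than one member, 5 were made again over the 8 arrays of day 28 alone and 1 with Spearman's rho, so the lists of nearest genes are not stable.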

How the data were processed

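Log2 signals of 33323 transcript clusters on 9 Affymetrix Mouse Gene 1.0 ST arrays were used as deposited. RNA had been amplified with the Ovation Pico system. The authors imported the raw data into BRB-ArrayTools, log2-scaled and normalised them. How probes were summarised is not given in the sources used here. The values are not centred per cluster. The precision of an array value is limited by the number of arrays.

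The members and gene lists were chosen with earlier results of these data known. Of the clusters, 21789 carry 1 symbol, 1621 several and 9913 none, and symbols were updated through the gene number for 21698. A gene with several clusters was read from the cluster that was brightest on average on day 28. The beating and non-beating groups were fitted on the 8 arrays of day 28 with lmFit and eBayes of limma (version 3.58.1, under R 4.3.3). Its two-sided p-values were adjusted by Benjamini-Hochberg across the whole table and called under 0.05. The code was tested on simulated data. Pairs of members were compared by exact permutation tests (Python 3.11.15).

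Named were all members, up to 4 called genes of each list with the largest change, all genes of lists with 5 or fewer measured, and the 3 genes of highest r with each member past the threshold. Values given for Mybpc3, Myl3, Myl7, Myl6, Myl6b, Myl12b, Mylk2, Mylk3, Ppp1r12b and Myo18b fall outside that rule and were chosen after their values were seen. As alternatives, arrays were median-centred, quantile-normalised, weighted, blocked by replicate number or left out in turn, clusters were filtered or exchanged, the variance model was changed, the round pool was added to the fit, and the methods' t-test was run. The round pool has no replicate and was the subject of no test. Promoter and miRNA sequences are those of RefSeq, and all 9 members had a window.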

Additional observations from a re-analysis of the deposited data

Results flagged for a closer look

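Among 74 sets of 4 replicates of the members and of the named genes of the lists, 10 held 1 array that stood apart from the other three by Dixon's test of the gap against the range. Chance gives about 1 in 20. Among the members, non-beating replicate 2 read 3.70 for Myh2, with the other arrays at 3.02 to 3.07, and non-beating replicate 3 read 3.07 for Myh4, with the others at 3.14 to 3.15. Beating replicate 1 stood apart for Mef2a (7.97, others 8.34 to 8.36), Myh14 (3.61, others 3.05 to 3.12) and Unc45a (3.84, others 3.98 to 4.00). Beating replicate 3 read 8.02 for Mylk4, with the others at 8.50 to 8.58. Non-beating replicate 4 stood apart for Mef2a (7.77, others 7.25 to 7.30), Mybph (4.46, others 3.68 to 3.75) and Myh11 (5.74, others 5.01 to 5.13). Non-beating replicate 1 read 1.95 for Mir499, with the others at 2.18 to 2.21.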

How the results depend on the processing

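Myh1, Myh2, Myh3, Myh4, Myh7 and Myh8 kept their direction and their call under all 19 alternatives run for each, with adjusted p (limma or the methods' t-test) of at most 0.00475, and Myh13 passed under none of its 16. Filters that drop dim or little-varying clusters gave no value for the dim members they removed. The labels do not say whether same-numbered samples shared dishes or animals. Their deviations from the group means had correlations of -0.012, 0.0278, -0.00938 and 0.0203, which do not show whether they were paired. With the replicate block Myh6 at 0.41 and Myh7b at 0.43 lost their call (limma adjusted p = 0.0672 for each). This left 6 of 9 members higher, and Myl6, Myl12b and Myh10 also lost their calls. Myh7b, at 0.43, also lost it with the methods' t-test (adjusted p = 0.0667), and over left-out arrays it ran from 0.36 to 0.47. Myh4 minus Myh1 ran from -2.15 to -1.63 over left-out arrays.

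The 2054 clusters past the threshold (940 higher, 1114 lower) became 837 higher and 1617 lower with median centring, 902 higher and 851 lower under a 1.5-fold prefilter, 866 (491 and 375) by the adjusted t-test, 221 with its unadjusted form at 0.0001, 1282 with the replicate block and 1007 to 1887 over left-out arrays, with 1359 without beating replicate 2 and 1185, 1007 and 1048 without non-beating replicates 1, 2 and 3. Of the other class II heavy chains, 0 passed with the prefilter, both t-tests and the block, and 0 to 1 over left-out arrays. Folding genes past the threshold were 2 without dim clusters and over clusters of 1 symbol, and 1 to 2 over left-out arrays. Kinase and phosphatase genes were 2 with the prefilter. Unconventional myosins were 1 with the adjusted and 0 with the unadjusted t-test, and 1 to 2 over left-out arrays. Hosted RNAs were 0 with the unadjusted t-test. The nearest genes shared with the choice reported were 5 over day 28 arrays and 1 with Spearman's rho. The sign turned for Hsp90aa1 (0.03, quantile normalization), Myh9 (0.22, another cluster), Smyd2 (-0.01, median centring) and Myh8 in the round pool against the beating mean (-0.35, median centring). The cause of these changes was not tested.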
